A study of Mus musculus with 22 samples.

Results

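The comparison described here is DNMT3A W330R against DNMT3A WT on day 4 of adipocyte differentiation of C3H 10T1/2 cells. This line of mouse mesenchymal cells can be driven into the fat, bone or cartilage lineage. The comparison was chosen by genotype and day from the labels and holds 4 of the 22 libraries of the series, 2 of WT and 2 of W330R, each with a replicate number 1 and 2. All 4 were total RNA of cells kept in adipocyte medium, which held isobutylmethylxanthine, dexamethasone, insulin and troglitazone for the first 2 days and insulin afterwards. The remaining libraries are WT and W330R cells that were undifferentiated or on days 2 and 6, and the double mutant W330R-R181E on days 2, 4 and 6, whose column names say R181A. The labels do not say whether a genotype is 1 clone or several, nor whether replicates are separate cultures, so that genotype and cell line cannot be told apart and p-values measure only the spread between these libraries. The reads counted on genes were 13314060 and 20106178 in WT and 14224351 and 25352281 in W330R, within the range of 8859501 to 47453908 over the series. At these depths 3 counts, taken as the smallest level that can be read, correspond to 0.217 and 0.161 CPM in WT and 0.191 and 0.111 CPM in W330R, and such floors cover counting error only. CPM stands for read counts scaled to a common library total, with the normalization factors of edgeR.

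DNMT3A is a de novo DNA methyltransferase, and its PWWP domain, in which W330 lies, reads methylation of lysine 36 of histone H3. Fat cell differentiation in culture runs through a cascade of transcription factors in which CEBPB and CEBPD act early and PPARG and CEBPA then maintain each other and switch on genes for lipid uptake, triglyceride synthesis, lipid droplets and insulin-dependent glucose uptake. Mitochondria are built up alongside, while progenitor and cell division genes are turned down as the cells mature.

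Dnmt3a itself had 105 and 159.8 CPM in WT and 87.4 and 137 CPM in W330R. The groups overlapped, and the difference on the log2 scale was -0.24 (SE 0.12, adjusted p = 0.203), where adjusted p is the Benjamini-Hochberg value of edgeR's quasi-likelihood test over all genes tested, and a log2 difference is W330R minus WT throughout. The change in Dnmt3a is a point mutation in the protein, so its RNA level does not check the label, and the sequence of the transcripts was not analysed here. None of the 14 tested genes of the DNA methylation machinery was called by edgeR (2, Uhrf1 and Zbtb38, at an unadjusted p under 0.05), with a median log2 difference of 0.07. Among them Uhrf1, which brings DNMT1 to replicating DNA, had 17.8 and 10.0 CPM in WT and 34.4 and 28.5 CPM in W330R (adjusted p = 0.0602), and DESeq2 with the same block called it alone of the 14 (adjusted p = 0.0164).

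The cells carried the markers of differentiating adipocytes in every library, with Fabp4 at 993 CPM or more and Adipoq at 162 CPM or more, beside mesenchymal markers such as Pdgfra at 247 CPM or more. Of 32 markers of other cell types (blood, endothelium, muscle, nerve and epithelium), 13 were high enough to be tested. Summed over all 32 markers, the level was 23.0 and 14.5 CPM in WT and 19.8 and 20.6 CPM in W330R. Only Tek, an endothelial receptor, was called among the 13 tested, with 1.73 and 1.4 CPM in WT and 4.64 and 5.34 CPM in W330R. In such bulk RNA, fewer cells of a type and less RNA per cell cannot be told apart, and this holds for every result below.

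Of 14520 genes tested, 2411 (16.6%) passed an adjusted p of 0.05 and are referred to as called. W330R was above WT in 1193 (8.22%) and below it in 1218 (8.39%). This count depends on pairing the libraries by replicate number: without that block 898 genes were called, and 896 (6.17%) were called in both fits, 398 (2.74%) higher and 498 (3.43%) lower. The fit also holds undifferentiated libraries. Over WT and W330R, their biological coefficient of variation was 0.047 against 0.239 at day 4 without the block. With the block it was 0.049 against 0.190. With the undifferentiated libraries left out 1851 genes were called, and 301 if the block was dropped as well. The libraries of the genotypes did not overlap for 7668 genes (52.8%), so that a lack of overlap by itself says little. The count was 1245 without WT replicate 1, 100 without WT replicate 2, 1450 without W330R replicate 1 and 341 without W330R replicate 2. Fitting the 4 libraries alone called 0 genes in edgeR, with 3396 of 13083 at an unadjusted p under 0.05 and a smallest adjusted p of 0.062. In the lists that follow, counts of calls are given first with the block, then as the number called in both fits, and then, in the order WT replicate 1, WT replicate 2, W330R replicate 1 and W330R replicate 2, as the number left when that library is omitted. Lists and members were chosen with earlier results of these data known, so these counts describe the lists and are no test of them. The plot of calls by gene list sets the shares called side by side.

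**Figure D1:**
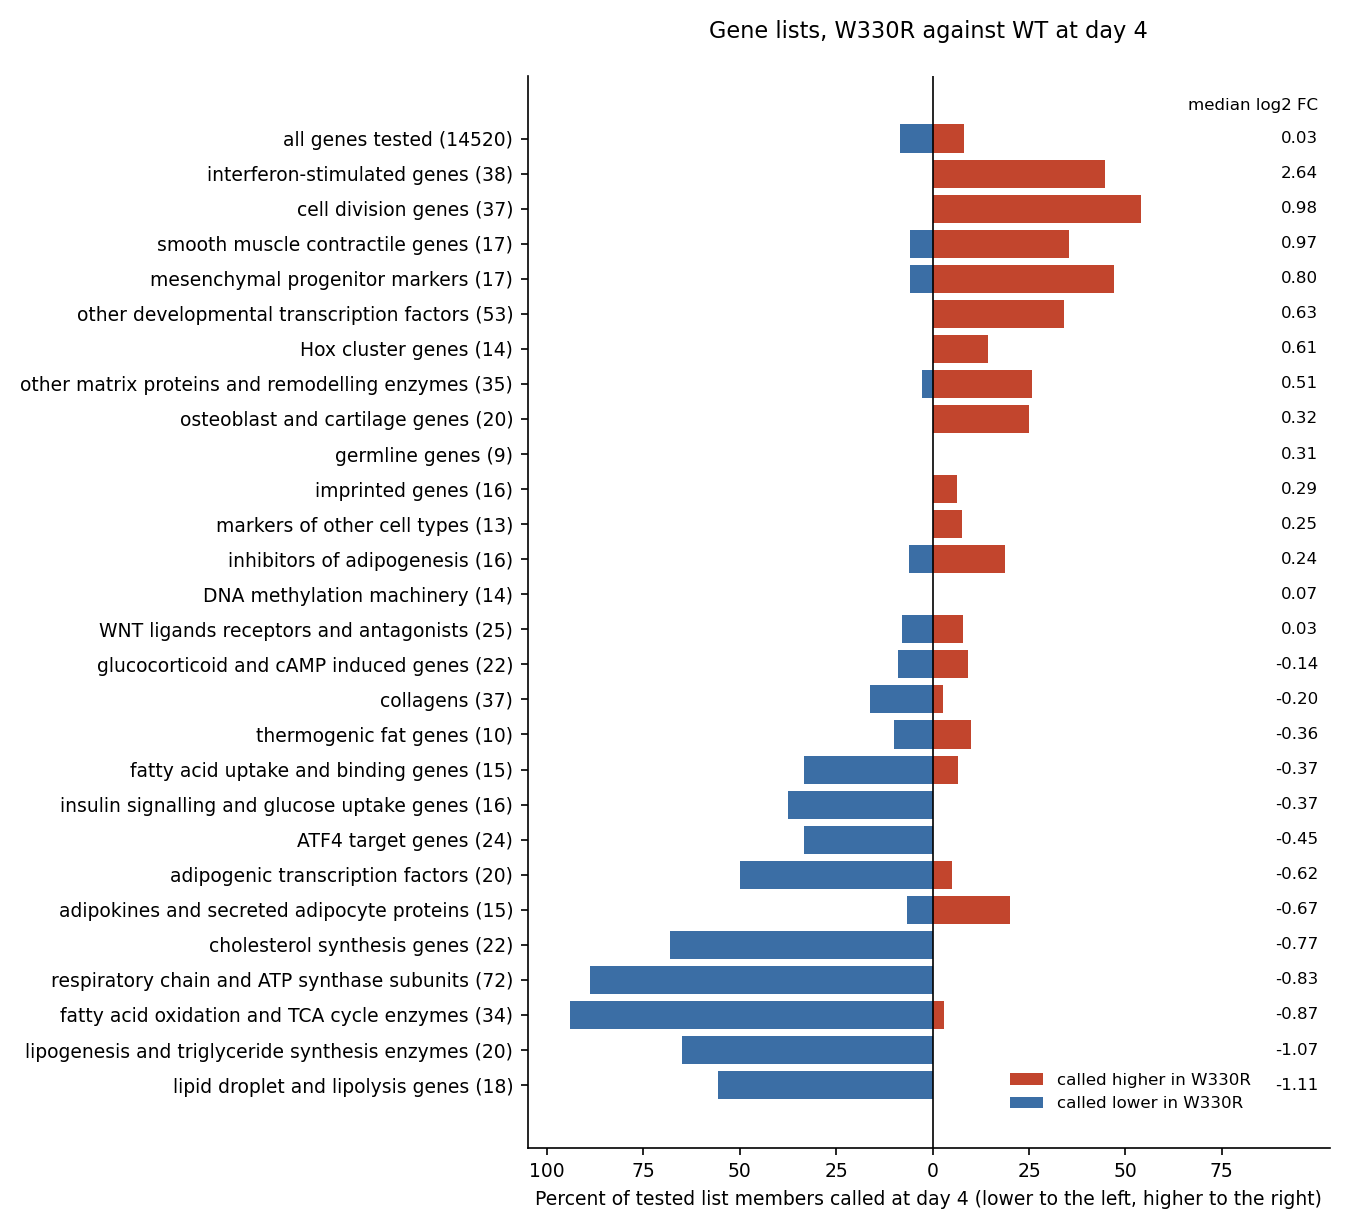
Share of tested genes called lower (bars to the left, blue) and higher (bars to the right, red) in W330R than in WT at day 4, in percent of the tested members of each of 27 gene lists and of all genes, with the median log2 difference at the right. The lists for fatty acid oxidation, the respiratory chain, lipogenesis and cholesterol synthesis reach far to the left. Those for cell division genes, mesenchymal progenitor markers and interferon-stimulated genes reach far to the right.

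Large decreases, among genes called in both fits whose log2 CPM averaged 2 or more over the 4 libraries, included genes of mature fat cells. Rarres2, which encodes the adipokine chemerin, had 10.1 and 32.2 CPM in WT and 0.891 and 2.74 CPM in W330R, both far under WT (log2 difference -3.51, SE 0.45, adjusted p = 0.00274). Mrap, an accessory protein of the corticotropin receptor that fat cells carry, had 19.2 and 16.5 CPM in WT and 1.02 and 3.19 CPM in W330R (-3.03). Other genes with large decreases in both fits were Sv2c, Ceacam1, the sterol exporter Abcg1, Mcam, Egfl7, Gramd1b, the monoglyceride lipase Mgll, Slc2a4 and Adig, with log2 differences between -3.01 and -2.34. Mcam, a cell adhesion molecule of perivascular cells, had 105 and 124 CPM in WT and 17 and 25.1 CPM in W330R, with a log2 difference of -2.46 (SE 0.15) and, together with Grem1, the smallest adjusted p of the comparison, 0.000102.

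Within the same limits on calls and level, the largest increases included secreted factors and genes that interferon induces. Some genes of lower level, among them Oas2, Sp100 and Sp110 below, differed more. Grem1, a secreted antagonist of bone morphogenetic proteins, had 7.15 and 3.61 CPM in WT and 44.2 and 26.7 CPM in W330R, a log2 difference of 2.75 (SE 0.17, adjusted p = 0.000102). Phactr1, a regulator of actin and protein phosphatase 1, had 4.12 and 4.20 CPM in WT and 25.6 and 34.1 CPM in W330R (2.84, SE 0.32, adjusted p = 0.00159). Prl2c2, a secreted member of the prolactin family also called proliferin, had 3.75 and 4.47 CPM in WT and 40.5 and 29.5 CPM in W330R (3.13). For all 3, both W330R libraries lay well clear of both WT libraries. Ptprq, a receptor-type phosphatase, had a log2 difference of 2.70. The other genes of this kind were Trim30a, Apol9a, Gm4070, Gbp7, H2-Q4, Gm4951, Parp14 and Ifi202b, with log2 differences between 2.74 and 5.03. Several of these, like Prl2c2, belong to families of near-identical copies, among which the counting may have divided reads.

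Small spreads also singled out genes with moderate changes. Abhd15, a gene of the insulin response of fat cells, had 36.2 and 38.9 CPM in WT and 9.80 and 11.2 CPM in W330R (log2 difference -1.84, SE 0.13, adjusted p = 0.000151). Tpm2, a tropomyosin of actin filaments, had 19.9 and 16 CPM in WT and 58.8 and 54.4 CPM in W330R (1.66, SE 0.12, adjusted p = 0.000151). Nov, a secreted matrix-associated protein, had 77.2 and 32.8 CPM in WT and 337 and 151 CPM in W330R, so that replicate 1 was the higher one in each genotype (2.16, adjusted p = 0.000671 with the block and 0.0715 without it). Plat, the tissue plasminogen activator, rose by 1.85.

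**Figure D2:**
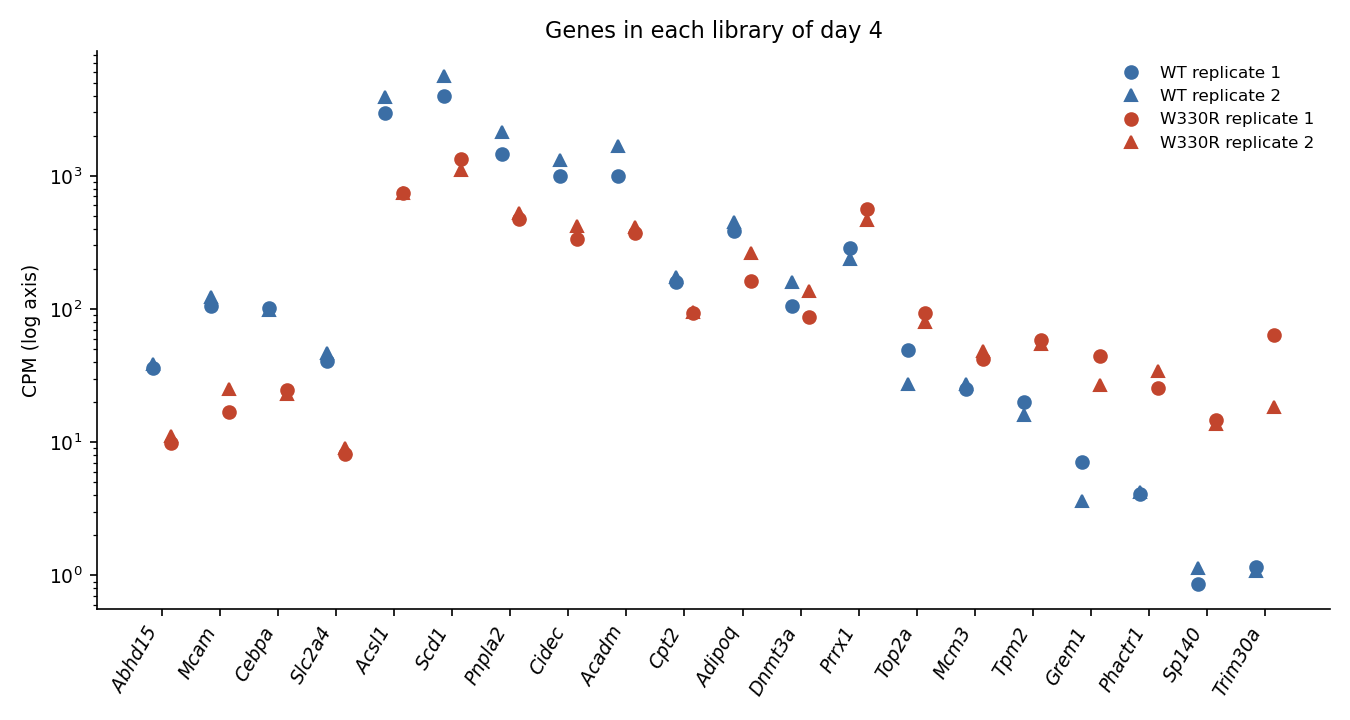
Level in CPM (log axis) of 20 genes in each of the 4 day 4 libraries, WT in blue and W330R in red, with circles for replicate 1 and triangles for replicate 2. Mcam falls from 105 and 124 CPM to 17 and 25.1 CPM, the adipocyte genes lie lower and Grem1, Phactr1, Sp140 and Trim30a higher in both W330R libraries, and Dnmt3a overlaps.

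Of 20 adipogenic transcription factors and cofactors, 10 were called lower and 1 higher (3 and 1 in both fits), with a median log2 difference of -0.62 against 0.03 for all genes. The lower count became 4, 2, 6 and 2 with each library omitted. Cebpa, which holds the mature state together with PPARG, had 102 and 98.8 CPM in WT and 24.6 and 23.2 CPM in W330R (-2.07, SE 0.29, adjusted p = 0.00302). Nr1h3, the liver X receptor alpha, had 19.2 and 22.3 CPM in WT and 5.22 and 5.97 CPM in W330R (-1.89, SE 0.20, adjusted p = 0.00145), and Ppargc1b, a coactivator of mitochondrial genes, had 32.4 and 49.5 CPM in WT and 8.84 and 10.2 CPM in W330R (-2.08). Pparg, the receptor that the medium's troglitazone binds, differed less, with 48.4 and 81.4 CPM in WT and 33.3 and 41.7 CPM in W330R (-0.76, SE 0.23, adjusted p = 0.0445, and 0.102 without the block). The early factors did not pass the test: Cebpb had an adjusted p of 0.0949, and Cebpd had 151 and 233 CPM in WT and 208 and 205 CPM in W330R (adjusted p = 0.657). Klf4 was the member called higher, with 17.5 and 15.8 CPM in WT and 44.0 and 38.3 CPM in W330R (1.30).

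Of 16 inhibitors of adipogenesis, 3 were called higher and 1 lower (1 and 1 in both fits), with a median of 0.24. The higher count was 3, 0, 2 and 1 with each library omitted. Wnt5a, a non-canonical WNT ligand, had 18.6 and 12.1 CPM in WT and 41.9 and 29.8 CPM in W330R (1.23, adjusted p = 0.00803). Gata2 and Foxc2, transcription factors of precursor cells, had log2 differences of 1.34 and 1.06. The member called lower was Foxo1, a forkhead factor under insulin control (-0.75).

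The genes that store and release fat were lower as a group. Of 18 genes of lipid droplets and lipolysis, 10 were called lower and 0 higher (6 and 0 in both fits), with a median of -1.11, and the lower count was 5, 3, 8 and 3 with each library omitted. Pnpla2, the triglyceride lipase that starts lipolysis, had 1457 and 2116 CPM in WT and 470.0 and 529 CPM in W330R (-1.81, SE 0.25, adjusted p = 0.00293). Lipe, the hormone-sensitive lipase, had 679.6 and 1003 CPM in WT and 260.3 and 266 CPM in W330R (-1.65). The lipases thus lay under the WT libraries by more than the replicates differed. Cidec, which fuses lipid droplets, had 1000.0 and 1306 CPM in WT and 332 and 419 CPM in W330R (-1.62, SE 0.19, adjusted p = 0.00208). Plin1, the droplet coat protein of mature fat cells, had 75 and 144 CPM in WT and 37.7 and 51.5 CPM in W330R and did not pass the test (adjusted p = 0.0611).

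Of 20 enzymes of lipogenesis and triglyceride synthesis, 13 were called lower and 0 higher (9 and 0 in both fits), with a median of -1.07 and a lower count of 10, 1, 10 and 3 with each library omitted. Scd1, the stearoyl-CoA desaturase, had 3953 and 5594 CPM in WT and 1334 and 1108 CPM in W330R (-1.94, SE 0.34, adjusted p = 0.00694). Each step from fatty acid to triglyceride had called members. Agpat2 and Dgat2, which add the second and the last acyl chain, had log2 differences of -2.04 and -1.81, Lpin1, the phosphatidate phosphatase between them, -1.11, and Fasn, the fatty acid synthase, -1.35. The summed level of the 20 genes was 11502 and 14723 CPM in WT and 5437 and 5142 CPM in W330R. Pck1, a PPARG target for glycerol synthesis, had 3.68 and 0.592 CPM in WT and 0.573 and 0.111 CPM in W330R, where replicate 2 was at the floor of 3 counts (-2.59, adjusted p = 0.00771, and 0.345 without the block).

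Of 15 genes of fatty acid uptake and binding, 5 were called lower and 1 higher (2 and 0 in both fits), with a median of -0.37 and a lower count of 5, 1, 5 and 2 with each library omitted. Acsl1, which activates fatty acids, had 2984 and 3902 CPM in WT and 739 and 745 CPM in W330R (-2.20, SE 0.24, adjusted p = 0.00148). Fabp4, the fatty acid carrier of adipocytes, had 1961 and 3256 CPM in WT and 993 and 1207 CPM in W330R (-1.21, adjusted p = 0.0119). The fatty acid receptor Cd36 overlapped between genotypes (adjusted p = 0.736).

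The listed adipokines and other secreted adipocyte proteins did not follow as a group: of 15 tested, 3 were called higher and 1 lower (0 and 0 in both fits), although the median was -0.67. This depends on the choice of members, since the list does not hold Rarres2, the adipokine gene called lower in both fits above (-3.51). The higher count was 3, 1, 2 and 1 with each library omitted, and 1 without the undifferentiated libraries. The median was -0.21 between the replicate 1 libraries and 0.06 between those of replicate 2. Adipoq had 387 and 454 CPM in WT and 162 and 261 CPM in W330R, and Cfd, which encodes adipsin, 184 and 105 CPM in WT and 33.0 and 73.1 CPM in W330R. The groups did not overlap for either gene, but neither passed the test (adjusted p = 0.0592 and 0.123). The chemokine gene Ccl2 was called higher, with 1.52 and 8.24 CPM in WT and 9.54 and 24.8 CPM in W330R (2.06).

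Of 16 genes of insulin signalling and glucose uptake, 6 were called lower and 0 higher (4 and 0 in both fits), with a median of -0.37 and a lower count of 4, 0, 3 and 1 with each library omitted. Slc2a4, the glucose transporter that insulin moves to the cell surface, had 40.5 and 46.8 CPM in WT and 8.14 and 9.0 CPM in W330R (-2.35, SE 0.28, adjusted p = 0.00208). Akt2, a kinase downstream of the insulin receptor, had a log2 difference of -0.89 and the receptor gene Insr of -0.84. The docking protein Irs1 did not pass (adjusted p = 0.414). Of 10 genes of thermogenic fat, 1 was called lower, the cytochrome oxidase subunit Cox8b (-2.35), and 1 higher, the transcription factor gene Ebf3 (0.77), with a median of -0.36.

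Mitochondrial enzymes gave the most uniform result. Of 34 enzymes of fatty acid oxidation and the tricarboxylic acid cycle, 32 were called lower and 1 higher (23 and 0 in both fits), with a median of -0.87, and the lower count was 25, 4, 26 and 5 with each library omitted. Acadm, the medium-chain acyl-CoA dehydrogenase, had 999 and 1672 CPM in WT and 371 and 413 CPM in W330R (-1.72, adjusted p = 0.00555). Cpt2, which completes carnitine-dependent import of fatty acids, changed less but with little spread, from 159 and 173 CPM to 93.8 and 95.1 CPM (-0.81, SE 0.095, adjusted p = 0.00159). Cpt1a, the outer membrane carnitine transferase of liver type, was the member called higher, with 48.7 and 37.6 CPM in WT and 70.9 and 53.9 CPM in W330R (0.53), and Idh3a did not pass (adjusted p = 0.141).

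Of 72 nuclear subunits of the respiratory chain and ATP synthase, 64 were called lower and 0 higher, and 18 were lower in both fits. The median was -0.83, and the lower count was 48, 1, 40 and 5 with each library omitted, lowest without WT replicate 2. The summed level was 13223 and 20700.4 CPM in WT and 7770.4 and 10101 CPM in W330R, so that replicate 2 was the higher one in each genotype and the groups did not overlap. By complex, 31 of 36 subunits of complex I were called lower (median -0.74), 9 of 9 of complex III (-1.03), 10 of 10 of complex IV (-0.90) and 14 of 17 of ATP synthase (-0.86). Uqcrfs1, the Rieske iron-sulfur protein of complex III, had 239.9 and 406 CPM in WT and 109 and 142 CPM in W330R (-1.33). Cox4i1 of complex IV had 651 and 1310.4 CPM in WT and 371 and 516 CPM in W330R (-1.08, adjusted p = 0.00636, and 0.0806 without the block). Of the 13 genes encoded by the mitochondrial genome itself, 3 were called lower, with a median of -0.63, and their share of all counts was 6.95% and 7.01% in WT and 5.56% and 5.18% in W330R.

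NRF1 is a transcription factor known to bind promoters of nuclear genes for respiratory subunits. Its motif, a pair of GCGC runs separated by A and any base (or any base and T on the other strand, so that matches on the strands can overlap), was searched after the values were seen in the 250 bases before each start in the RefSeq promoter table of the mouse, build GRCm38.p6. Of the 72 subunits, 61 (84.7%) had a window, and 11 of these (18%) held the motif, against 4.23% of the 27025 gene symbols in the table. Those symbols include genes that were not tested here, so the shares are not over like sets. Among the holders only Atp5g2 was not called (adjusted p = 0.244), in a list of which 64 of 72 were called lower. The 3 holders with the smallest adjusted p are shown, 90 bases each before the start, with the motif in capitals: Atp5k (chr5:108434400-108434489, minus strand), Ndufa11 (chr17:56717662-56717751, plus strand) and Ndufs6 (chr13:73328483-73328572, minus strand).
Atp5k: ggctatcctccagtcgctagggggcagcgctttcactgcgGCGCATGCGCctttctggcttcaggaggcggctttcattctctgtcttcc
Ndufa11: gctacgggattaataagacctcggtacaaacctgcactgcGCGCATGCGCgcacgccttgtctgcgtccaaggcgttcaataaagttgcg
Ndufs6: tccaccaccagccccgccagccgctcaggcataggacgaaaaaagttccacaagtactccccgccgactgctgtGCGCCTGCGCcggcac
Their log2 differences were -0.99, -0.69 and -0.77. A match describes the letters in the window and neither a bound site nor a cause. In the same way, 16 of the 20 lipogenesis genes (80.0%) had a window, and the C/EBP motif TTGCNCAA, or TTGNGCAA on the other strand, stood in 2 of these (12.5%) against 2.99% of all symbols, in neither case in a called gene.

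Of 22 cholesterol synthesis genes, 15 were called lower and 0 higher (9 and 0 in both fits), with a median of -0.77 and a lower count of 12, 4, 11 and 4 with each library omitted. Pmvk, the phosphomevalonate kinase, had 53.7 and 76.7 CPM in WT and 28.1 and 29.6 CPM in W330R (-1.16, SE 0.14, adjusted p = 0.00174). Cyp51, the lanosterol demethylase, had 407 and 626 CPM in WT and 195 and 132 CPM in W330R (-1.63). Of 24 target genes of ATF4, the transcription factor of the amino acid response, 8 were called lower and 0 higher (3 and 0 in both fits), with a median of -0.45 and a lower count of 5, 0, 6 and 0, and of 5 without the undifferentiated libraries. Trib3, a pseudokinase, had 30.5 and 55.7 CPM in WT and 11.7 and 20.9 CPM in W330R (-1.39), and Asns, the asparagine synthetase, had a log2 difference of -0.83.

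Of 17 mesenchymal progenitor markers, 8 were called higher and 1 lower (1 and 1 in both fits), with a median of 0.80 and a higher count of 5, 0, 4 and 3 with each library omitted. Prrx1, a homeobox factor of mesenchyme, had 288 and 239 CPM in WT and 565 and 465 CPM in W330R (0.97, SE 0.16, adjusted p = 0.00541). Pdgfra, a receptor of fat cell precursors, had 365 and 247 CPM in WT and 553 and 587 CPM in W330R (0.90, adjusted p = 0.0345). Mcam, described above, was the marker called lower. Summed over the list, the level was 1794 and 1536 CPM in WT and 2581 and 2373 CPM in W330R.

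Of 35 matrix proteins and remodelling enzymes other than collagens, 9 were called higher and 1 lower (4 and 0 in both fits), with a median of 0.51 and a higher count of 7, 1, 9 and 2. The median was not shared by the replicates: it was -0.01 between the replicate 1 libraries and 0.74 between those of replicate 2. Thbs2, an anti-angiogenic matrix protein, had 1.44 and 0.861 CPM in WT and 13.5 and 7.11 CPM in W330R (3.13, SE 0.41, adjusted p = 0.00239), and Efemp1, a fibulin, had a log2 difference of 2.34. Acan, the cartilage proteoglycan aggrecan, was the member called lower, on 61 and 3 counts in WT and 0 and 1 counts in W330R. The collagens did not share this direction: of 37, 1 was called higher and 6 lower (0 and 1 in both fits), with a median of -0.20 and a lower count of 2, 0, 3 and 1. Col4a1, of basement membrane, had 2162 and 3851 CPM in WT and 1450.2 and 1230.4 CPM in W330R (-1.09), and Col6a3 had 4150.2 and 8437 CPM in WT and 1938 and 1587 CPM in W330R (-1.67).

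Of 17 smooth muscle contractile genes, 6 were called higher and 1 lower (2 and 0 in both fits), with a median of 0.97 and a higher count of 5, 1, 8 and 3. Besides Tpm2, Synpo2, an actin-bundling protein, had 2.17 and 1.67 CPM in WT and 7.89 and 11.3 CPM in W330R (2.31). Des, which encodes desmin, was the member called lower (-1.68), and Acta2 did not pass (adjusted p = 0.0992). Of 20 osteoblast and cartilage genes, 5 were called higher and 0 lower, 0 of them in both fits, with a median of 0.32 and a higher count of 2, 0, 1 and 0. The median was -0.01 between the replicate 1 libraries and 0.99 between those of replicate 2. Summed over all 26 listed genes, the 926 and 1033 CPM in W330R lay within the 1704 and 526 CPM of WT. Without the undifferentiated libraries in the fit 2 were called. The 5 were Phex, Alpl, Spp1, Bmp4 and Runx2, with log2 differences between 0.62 and 2.27.

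Of 53 developmental transcription factors outside the Hox clusters, 18 were called higher and 0 lower (6 and 0 in both fits), with a median of 0.63 and a higher count of 13, 1, 14 and 5. Foxf1, a forkhead factor of mesenchyme, had 12.3 and 10.2 CPM in WT and 27.5 and 25 CPM in W330R (1.23, SE 0.12, adjusted p = 0.00132, and 0.0866 without the block). Prrx2, the paralog of Prrx1, had 32.7 and 29.2 CPM in WT and 84.4 and 81.8 CPM in W330R (1.42). The 6 members called in both fits were Foxc1, Irx2, Meis2, Osr2, Prrx2 and Tbx18. Of 14 Hox genes, 2 were called higher, Hoxa2 (0.79) and Hoxa7 (0.45), neither in both fits nor without the undifferentiated libraries, with a median of 0.61.

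Of 37 cell division genes, 20 were called higher and 0 lower, with a median of 0.98 and 36 of 37 above 0. In both fits 4 were called, Mcm3, Mcm4, Mcm6 and Rrm2, and the higher count was 3, 1, 8 and 1 with each library omitted and 9 without the undifferentiated libraries, whose replicates were much closer than those of day 4. Rrm2, a subunit of ribonucleotide reductase, had 15.2 and 9.69 CPM in WT and 32.3 and 29.5 CPM in W330R (1.35, SE 0.25, adjusted p = 0.00803). Top2a, the topoisomerase of dividing cells, had 49.6 and 27.5 CPM in WT and 93.3 and 79.8 CPM in W330R (1.21, adjusted p = 0.00943, and 0.158 without the block). Mki67 did not pass (adjusted p = 0.0955), nor did Ccne1, which encodes cyclin E1 (0.703). The summed level of the list was 639 and 525 CPM in WT and 1034 and 960 CPM in W330R, so that the groups did not overlap.

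Promoters of many mitotic genes carry a cell cycle homology region with the letters TTTGAA, or TTCAAA on the other strand, which 18.3% of all symbols held somewhere in the window. Only 29 of the 37 cell division genes (78.4%) had a window, too few for a share over the list, and none is given. The 3 called holders with the smallest adjusted p are shown with the motif in capitals: Top2a (chr11:99024190-99024279, minus strand), Cdc20 (chr4:118437344-118437433, minus strand), the activator of the anaphase-promoting complex, and Mcm2 (chr6:88898803-88898892, minus strand), a subunit of the replicative helicase.
Top2a: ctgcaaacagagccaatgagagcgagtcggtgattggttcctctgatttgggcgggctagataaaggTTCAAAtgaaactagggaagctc
Cdc20: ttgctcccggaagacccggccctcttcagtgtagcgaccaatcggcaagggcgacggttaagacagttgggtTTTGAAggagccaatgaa
Mcm2: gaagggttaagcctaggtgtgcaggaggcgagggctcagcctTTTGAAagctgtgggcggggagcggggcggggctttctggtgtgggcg
Cdc20 had a log2 difference of 1.56 and Mcm2 of 0.65. The other called holders were Cdk1, Kif11 and Ccnb2, with adjusted p from 0.0463 to 0.0499. Mki67 also held the motif and was not called (adjusted p = 0.0955).

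Interferon-stimulated genes were higher in W330R, but to very unequal extents in its replicates. Type I interferon switches on genes that sense and degrade viral RNA or bind pathogens. Of 38 such genes tested, 17 were called higher and 0 lower (9 and 0 in both fits), with a median log2 difference of 2.64, and the higher count was 1, 1, 1 and 6 with each library omitted and 8 without the undifferentiated libraries. Summed over all 40 listed genes, the level was 413 and 416 CPM in WT and 2186 and 629 CPM in W330R. Both W330R libraries lay above WT, and replicate 1 lay above replicate 2 in 38 of 38 genes in W330R, against 18 of 38 in WT. Trim30a, a ubiquitin ligase of the tripartite motif family, had 1.16 and 1.08 CPM in WT and 64.1 and 18.4 CPM in W330R (5.03, SE 1.1, adjusted p = 0.0145). Ifit1, an RNA-binding effector, had 1.37 and 0.861 CPM in WT and 115 and 6.22 CPM in W330R (adjusted p = 0.0415, and 0.0821 without the block). Ifit2 was the most even, with 7.58 and 6.14 CPM in WT and 21.4 and 16.2 CPM in W330R (1.45, SE 0.19, adjusted p = 0.0021). Oas2, which makes the 2-5 oligoadenylates that activate RNase L, had 0 and 2 counts in WT, under the floor, and 98.9 and 3.22 CPM in W330R. Irf7, a transcription factor that amplifies the interferon response, did not pass the test (adjusted p = 0.682).

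The interferon-stimulated response element has a core of GAAA repeated after any 2 bases (TTTC repeated likewise on the other strand), which 3.46% of all symbols held. Of the interferon list, 29 of 40 members (72.5%) had a window, again too few for a share over the list, and none is given. Members called in both fits that held it are shown, with the core in capitals: Trim30a (chr7:104465194-104465283, minus strand), Oas1a (chr5:120907526-120907615, minus strand), Ddx60 (chr8:61927997-61928086, plus strand), Gbp2 (chr3:142620564-142620653, plus strand), Gbp7 (chr3:142530243-142530332, plus strand) and Irgm2 (chr11:58214873-58214962, plus strand).
Trim30a: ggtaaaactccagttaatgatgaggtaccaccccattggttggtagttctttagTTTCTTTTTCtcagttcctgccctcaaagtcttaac
Oas1a: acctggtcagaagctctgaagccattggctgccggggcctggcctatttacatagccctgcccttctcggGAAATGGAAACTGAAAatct
Ddx60: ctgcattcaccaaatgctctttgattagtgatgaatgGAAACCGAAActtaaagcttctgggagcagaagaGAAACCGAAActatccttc
Gbp2: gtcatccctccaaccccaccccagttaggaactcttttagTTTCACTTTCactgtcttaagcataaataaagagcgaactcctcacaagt
Gbp7: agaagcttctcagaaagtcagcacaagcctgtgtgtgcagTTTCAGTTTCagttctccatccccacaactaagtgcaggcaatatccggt
Irgm2: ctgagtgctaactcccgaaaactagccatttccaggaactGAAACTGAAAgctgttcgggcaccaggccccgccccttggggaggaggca
The core also stood in Gbp3, I830012O16Rik, Ifit3, Igtp, Irgm1, Oas3, Rsad2 and Stat2, which were tested and not called. Their adjusted p ran from 0.0588 to 0.425. Oas1a and Ddx60 sense viral RNA or act on it, and Gbp2, Gbp7 and Irgm2 are GTPases induced by interferon. Gbp2 had 1.95 and 4.04 CPM in WT and 21.1 and 11.1 CPM in W330R, Irgm2 0.433 and 1.02 CPM in WT and 20.5 and 5.00 CPM in W330R, and Gbp7 2.24 and 1.61 CPM in WT and 25.4 and 6.30 CPM in W330R.

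A run of neighbouring genes on chromosome 1 stood out among the increases and was chosen after its values were seen. Between Slc16a14 and Cab39 the RefSeq annotation lists 24 genes, among them Sp100, Sp110 and Sp140, which encode nuclear body proteins that interferon induces, and several near-identical gene models. Of the 13 that were tested, 8 were called higher and 0 lower (7 and 0 in both fits), and these 8 are among the 52 called genes with a log2 difference above 3. Sp140 had 0.866 and 1.13 CPM in WT and 14.6 and 13.8 CPM in W330R, with little difference between replicates (3.84, SE 0.36, adjusted p = 0.000863). Sp100 had 0.650 and 0.592 CPM in WT and 41.0 and 9.34 CPM in W330R (5.07, SE 0.93, adjusted p = 0.0081). Sp110 had 1 count in each WT library and 5.22 and 1.41 CPM in W330R. The summed level of the 13 genes was 5.27 and 4.41 CPM in WT and 88.4 and 39.1 CPM in W330R. In sum this is a narrower ratio between the W330R replicates than for the interferon list, but the members were unequal. While Sp140 was even, Sp100 and Sp110 were not, nor were Gm15433 (4.01 and 1.11 CPM in W330R) and Gm7609 (10.1 and 2.89 CPM). The flanking genes Trip12, Fbxo36, Cab39 and Itm2c were not called. Since the copies resemble each other, the division of reads among them is uncertain.

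**Figure D3:**
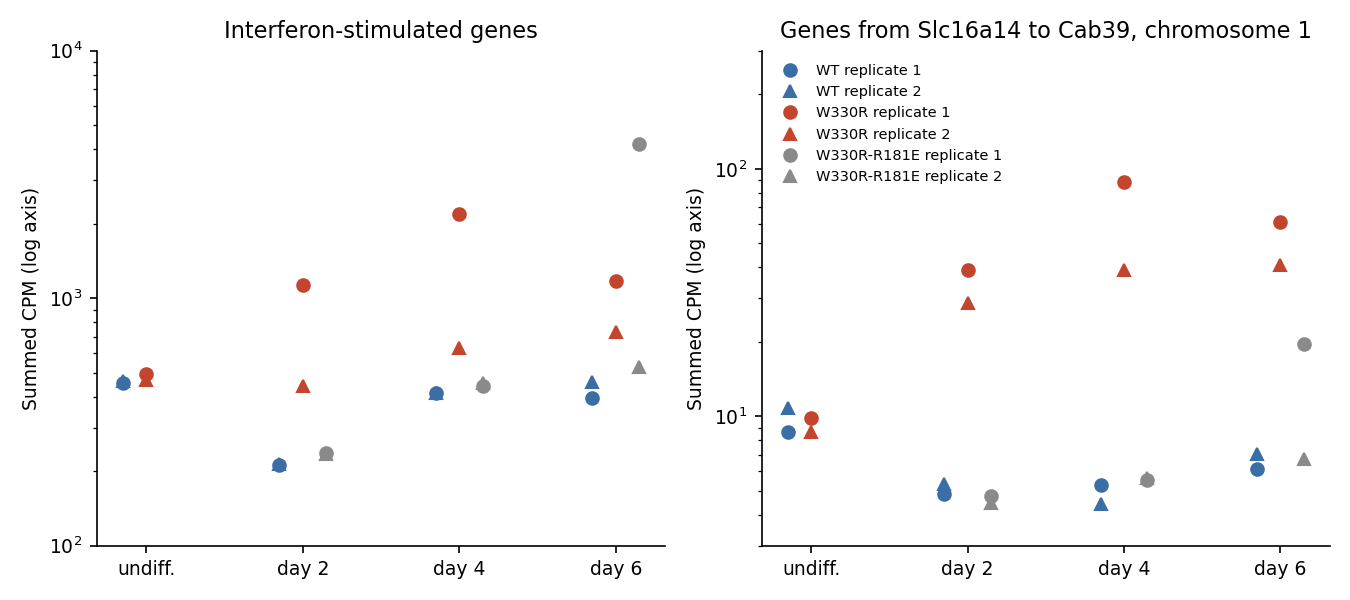
Summed level in CPM (log axis) of the interferon list and of the 13 tested genes between Slc16a14 and Cab39, in every library by stage, genotype and replicate. At day 4 the interferon list is at 2186 and 629 CPM in W330R and at 413 and 416 CPM in WT, and the chromosome 1 genes at 88.4 and 39.1 CPM against 5.27 and 4.41 CPM.

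The remaining lists gave few calls, and the median changed sign between replicate pairs for the WNT, germline, and glucocorticoid and cAMP lists. Of 25 WNT ligands, receptors and antagonists, 2 were called higher and 2 lower, with a median of 0.03, among them Lef1, the nuclear partner of beta-catenin, with 11.3 and 19.6 CPM in WT and 4.64 and 3.74 CPM in W330R (-1.81). Of 22 genes that glucocorticoid and cAMP induce, 2 were called higher and 2 lower (median -0.14). Of 16 imprinted genes, 1 was called higher, the zinc finger gene Plagl1 (1.35), with a median of 0.29, and of 9 germline genes none was called by edgeR (3 at an unadjusted p under 0.05, median 0.31).

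Whether the differences follow the course of WT differentiation was described with genes sorted by the difference between the WT libraries of days 2 and 6. That difference was tested in the same fit of 22 libraries. The sorting thus shared its estimate of the spread with the day 4 calls and was not independent of them. Of 2849 genes that rose in WT from day 2 to day 6, 612 (21.5%) were called higher and 285 (10.0%) lower in W330R at day 4. Of 2627 genes that fell, 102 (3.88%) were called higher and 308 (11.7%) lower. Of 9044 genes not called between these days, 479 (5.30%) were called higher and 625 (6.91%) lower. Genes that rise in WT were thus called in both directions, more often higher than lower. On a scale where WT at day 2 is 0% and WT at day 6 is 100%, the median over 1692 rising genes that changed at least 2-fold was 73.1% and 56.2% in the WT libraries of day 4, 85.2% and 85.1% in W330R and 77.0% and 67.5% in W330R-R181E. For 564 falling genes it was 70.4% and 45.3% in WT, 81.6% and 80.0% in W330R and 84.2% and 66.5% in W330R-R181E. In each class WT replicate 1 stood closer to both W330R libraries than to WT replicate 2. The quartiles of the rising genes were 41.3% and 121% in W330R replicate 1 and 44.4% and 106% in W330R-R181E replicate 1, both wider than the 55.3% and 91.9% of WT replicate 1.

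The same comparison in the libraries of the other days gave 1331 called genes (9.17%) at day 2 and 2372 (16.3%) at day 6. Of the day 4 calls, 845 were called in the same direction at day 2, which is 35.0% of those of day 4 and 63.5% of those of day 2. At day 6, 1636 were called in the same direction, which is 67.9% of those of day 4 and 69.0% of those of day 6. All 3 days shared 632 genes, 403 higher and 229 lower, and 559 were called at day 4 only, which does not show that their effect was particular to that day. A test of the difference between days called 0 genes in edgeR for day 4 against day 2 (1080 at an unadjusted p under 0.05, smallest adjusted p 0.274) and 0 for day 6 against day 4 (392 and 0.665), where DESeq2 with the same block called 57 and 2. Cebpa was already low on day 2, with 76.9 and 134 CPM in WT and 16.5 and 19.4 CPM in W330R. Pck1 had a log2 difference of 1.65 at day 2, -2.59 at day 4 and -3.58 at day 6, and Lpin1 of 0.13, -1.11 and -1.67, neither past the test of the difference (adjusted p = 0.274 for Pck1 between days 2 and 4).

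**Figure D4:**
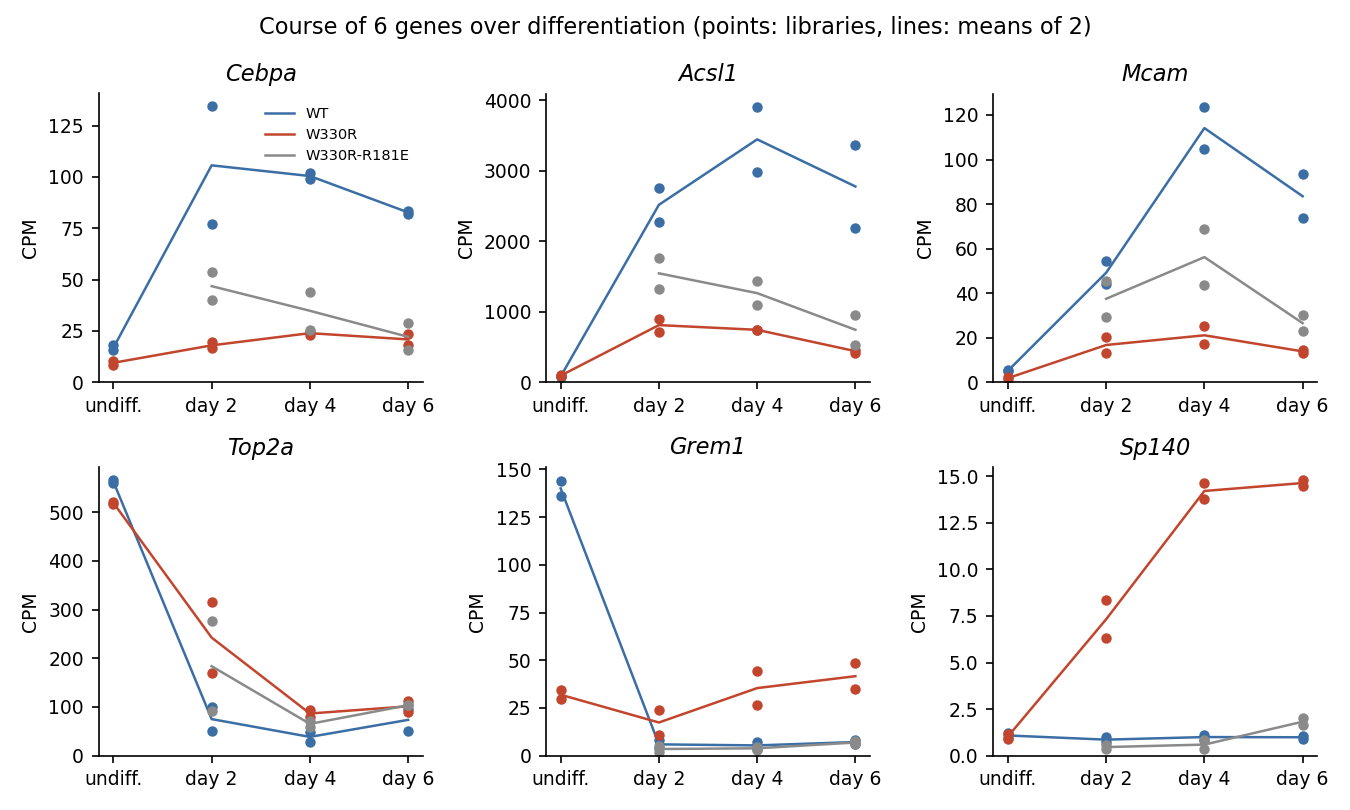
Level in CPM of Cebpa, Acsl1, Mcam, Top2a, Grem1 and Sp140 in undifferentiated cells and on days 2, 4 and 6, for WT, W330R and W330R-R181E, with points for libraries and lines through the mean of 2. At day 4 W330R lies under WT for the first 3 genes and above it for the last 3.

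The double mutant on day 4 is given for levels only, since it would share the WT libraries with the comparison. Its interferon list stood at 442 and 456 CPM and the chromosome 1 genes at 5.53 and 5.61 CPM, near the WT values. Grem1 had 4.56 and 3.17 CPM, which is within or under the WT levels of 7.15 and 3.61 CPM. Mcam, at 43.5 and 68.8 CPM, lay between the WT and W330R levels. So did Cebpa, at 25.7 and 43.9 CPM, but with replicate 1 just above the W330R levels of 24.6 and 23.2 CPM. Acsl1 had 1097 and 1428 CPM and the lipogenesis enzymes a sum of 7462 and 8424 CPM, between those of the other genotypes as well, and the cell division genes summed to 867 and 751 CPM, between 639 and 960 CPM. Other levels went differently. Sv2c had 2.43 and 2.52 CPM, near the W330R levels of 1.65 and 2.19 CPM. The adipogenic transcription factors summed to 1348 and 1797 CPM, with replicate 1 under both W330R libraries. Wnt5a, at 6.99 and 8.83 CPM, lay under WT. The osteoblast and cartilage genes summed to 4897 and 1307 CPM, with replicate 1 above every WT and W330R library of day 4.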

How the data were processed

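RNA of C3H 10T1/2 cells was sequenced after library preparation with NEBNext Ultra II, per the labels. The authors deposited estimated counts per gene symbol as whole numbers, without normalization, and their processing notes name kallisto, DESeq2 1.40 and GRCm39 without a role. Use of strand is not given in the sources used here. From the 30170 symbols, filterByExpr of edgeR 4.0.16 (R 4.3.3, minimum count 10, minimum total 15) kept 14520. TMM factors and a quasi-likelihood model of all 22 libraries, with 1 mean per genotype and day and the replicate number as a block within each day, gave the comparison, so that 2 libraries per group borrowed the spread of the others. The labels give the replicate numbers but not what they share. Differences between replicates correlated at 0.176 between WT and W330R, 0.430 between WT and W330R-R181E and 0.157 between W330R and W330R-R181E on day 4, and at 0.030 in undifferentiated cells. Standard errors are the log2 difference divided by the square root of F. CPM were computed with TMM-scaled library sizes.

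Genes named were the 12 largest changes in each direction called in both fits with no overlap and a log2 CPM of 2 or more on average, up to 6 in each direction with the smallest adjusted p for this comparison and for each difference between days, the DNA methylation list, and up to 4 called members per list and direction with those that define it. The promoter motifs and the chromosome 1 genes were chosen after values were seen. The members and lists were chosen with earlier results of these data known. Alternatives were RLE, no filter, other blocks, DESeq2 1.42.0, subsets of conditions and leaving out each library. The code was tested on simulated data. A few genes that the rule names are not reported here.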

Additional observations from a re-analysis of the deposited data

How the results depend on the processing

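Without the replicate block 898 genes were called, 399 higher and 499 lower in W330R. A fit of only the 4 libraries called 0 genes, 0 higher and 0 lower, with few residual degrees of freedom by construction. The counts were 1834, 847 and 987 with 1 block shared by all days, 1834, 897 and 937 with no filter, and within 1.5 times those reported for RLE (2395) and DESeq2 with the block (2830). With 1 library left out, 100 to 1450 genes were called, 46 to 716 higher and 54 to 734 lower, and 0 to 1 for each difference between days. The share higher was 49.5% as reported and 65.1% without W330R replicate 2. DESeq2 with the block called 57 genes for day 4 against day 2 and 2 for day 6 against day 4.

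Alternatives chosen after seeing the data followed from the tighter replicates of undifferentiated cells. Their biological coefficient of variation was 0.047 against 0.239 at day 4 without the block, and 0.049 against 0.190 with it. Days 2 to 6 with the block gave 1851 calls, 796 higher and 1055 lower, and without it 301, 112 and 189 (37.2% higher) and 3193 genes between days 6 and 2 in WT in place of 5476. Day 4 alone gave 1500, 688 and 812. DESeq2 without the block gave 1700, 745 and 955, and 17 and 5 for the differences between days. The cause of these changes was not tested. No call changed sign, and 58 genes (23 higher, 35 lower), among them Mcam, Cebpa, Acsl1, Cpt2, Cidec, Phactr1, Sp140 and Grem1, were called in all 15 fits other than that of the 4 libraries. Of the 144 genes named by rule, 49 lost the call without the block and 90 without WT replicate 2.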

Other observations

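Some values lie outside day 4 and outside the comparison. Grem1, higher in W330R at day 4, had 136 and 144 CPM in undifferentiated WT cells and 29.6 and 34.2 CPM in undifferentiated W330R cells, so that the order of the genotypes was the opposite there. The interferon list summed to 454 and 463 CPM in WT and 496 and 467 CPM in W330R before differentiation, and to 212 and 214 CPM in WT and 1136 and 440 CPM in W330R on day 2. On day 6 it summed to 394 and 458 CPM in WT and 1170 and 732 CPM in W330R, and replicate 1 of W330R-R181E stood apart with 4212 CPM against 527 CPM in its replicate 2. The 13 chromosome 1 genes summed to 19.6 and 6.72 CPM in the same pair of libraries.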
